A study of Mus musculus with 2 samples.

Results

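Purkinje cells are the large GABAergic output neurons of the cerebellar cortex, and 10 genes of their lineage were followed here among the 43346 genes quantified. They were taken by symbol from a named list, chosen with earlier results of these data known: Ptf1a, Skor2, Foxp2, Rora, Ebf2, Calb1, Pcp2, Pcp4, Car8 and Itpr1. All 10 were matched by gene identifier to GENCODE, all are annotated as protein-coding, and all were tested. The samples were the hindbrains of B6NCrl mouse embryos at 14.5 days of gestation, with 2 replicates and no second condition. The labels describe each library as made from the hindbrain of a single pup, with 10 ng of RNA longer than 200 nt. The pups were collected on different dates, so date and replicate cannot be told apart. Both samples also carry a sex label of pooled male and female, which conflicts with a single pup, and the same donor identifier. That they are separate embryos therefore rests only on labels that are not fully compatible.

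Purkinje cells arise in the ventricular zone of the cerebellar primordium, where Ptf1a commits progenitors to a GABAergic fate. They leave the cell cycle, switch on factors such as Skor2, Foxp2, Rora and Ebf2, and migrate outward toward the later Purkinje cell layer. Mature cells are known for strong calcium signalling, driven by release through Itpr1 and shaped by Calb1, Pcp4 and Car8. Several of these genes are also used by other neurons: Foxp2 and Calb1, for example, are expressed in other hindbrain nuclei, and a hindbrain sample holds the pons and medulla as well as the cerebellum.

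Expected counts, which are estimated reads, summed to 34929425 in replicate 1 and 33510896 in replicate 2. All 7 pan-neuronal genes and all 6 genes of the inferior olive and precerebellar nuclei, which lie in the hindbrain, were above 1 TPM in both replicates. TPM is a level corrected for transcript length and scaled to a fixed total per library. A difference between the replicates was tested for each gene by comparing its expected counts in an exact binomial test, two-sided, adjusted by Benjamini-Hochberg over 17664 genes and called at an adjusted p under 0.05. The test compares these libraries and not conditions, and a difference it calls may be technical. Ratios are log2 of TPM + 1, replicate 1 over replicate 2, so a negative value means less in replicate 1.

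The levels of the Purkinje lineage genes spanned a wide range, from Pcp4 among the most abundant transcripts of the tissue to Ptf1a below 1 TPM. Of the 10, 7 reached 1 TPM in both replicates, Skor2 and Pcp2 reached it in replicate 2 alone, and Ptf1a in neither. By the authors' posterior mean TPM, Pcp2 was at 1.39 in replicate 1 and 5.34 in replicate 2, and 8 genes reached 1 TPM in both. By mean TPM the order was Pcp4, Ebf2, Foxp2, Rora, Calb1, Car8, Itpr1, Pcp2, Skor2 and Ptf1a. The replicates gave the same first 6 ranks. In replicate 1 the ranks that followed were Itpr1, Skor2 and Pcp2, and in replicate 2 they were Pcp2, Itpr1 and Skor2. Only 4 neighbours in the order were apart in the sense that the lowest value of the higher gene exceeded the highest value of the lower gene. These were Pcp4 over Ebf2 (9.77-fold by means), Calb1 over Car8 (2.19-fold), Car8 over Itpr1 (2.41-fold) and Skor2 over Ptf1a (2.56-fold). Within the run of Ebf2, Foxp2, Rora and Calb1, neighbours were not separated beyond the replicate spread, nor were those within the run of Itpr1, Pcp2 and Skor2.

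**Figure D1:**
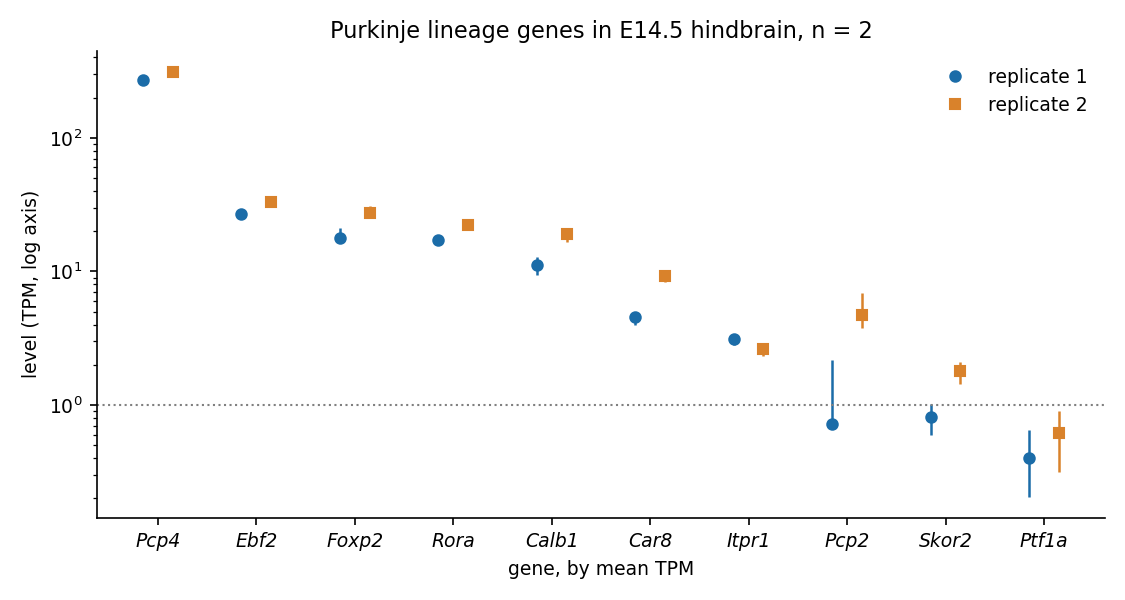
Level of each Purkinje lineage gene in TPM on a log axis, in order of the mean, with circles for replicate 1, squares for replicate 2 and vertical lines for the authors' credibility intervals; the dotted line marks 1 TPM. Pcp4 stands 9.77-fold above Ebf2 by means, and 9 of the 10 genes are lower in replicate 1, with the widest gap at Pcp2 (0.72 TPM in replicate 1 and 4.70 TPM in replicate 2).

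Ptf1a, a basic helix-loop-helix factor needed for cerebellar GABAergic neurons, was the lowest of the 10. The gene lies on the plus strand of chromosome 2, at 19445663 to 19447501 (GRCm38), with 1 transcript model. It stood at 0.40 TPM in replicate 1 and 0.62 TPM in replicate 2, from 12 and 17 expected counts (mean 0.51 ± 0.156 TPM, SD, n = 2). The authors' credibility intervals, 0.206 to 0.650 TPM in replicate 1 and 0.314 to 0.901 TPM in replicate 2, overlapped. The difference was not called (exact binomial test, adjusted p = 0.511). The antisense gene annotated over it, Ptf1aos, was listed at 0 in both replicates.

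Among the factors of young postmitotic Purkinje cells, Skor2, a nuclear corepressor needed for Purkinje cell differentiation, was the lowest. It lies on the plus strand of chromosome 18, from 76856405 to 76900342. Its level was 0.81 TPM in replicate 1 and 1.80 TPM in replicate 2, from 53 and 107 counts (mean 1.31 ± 0.700 TPM, SD, n = 2). The log2 ratio was -0.63, and the difference was called (exact binomial test, adjusted p = 6.61e-05). The intervals, 0.595 to 1.02 TPM in replicate 1 and 1.44 to 2.10 TPM in replicate 2, did not overlap. In bulk tissue, fewer cells of a type and less RNA per cell cannot be told apart, for this gene and for each of the genes that follow.

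Foxp2, a forkhead repressor found in Purkinje cells and in neurons of the inferior olive, extends over 540.629 kb of the plus strand of chromosome 6, from 14901349 to 15441977. It stood at 17.8 TPM in replicate 1 and 27.4 TPM in replicate 2 (mean 22.6 ± 6.84 TPM, SD, n = 2), from 1955 and 2735 counts. Its log2 ratio was -0.60, and it had the smallest adjusted p of the 10 genes (exact binomial test, 5.86e-35). The deposited intervals, 17.9 to 21.1 TPM in replicate 1 and 27.1 to 30.8 TPM in replicate 2, were apart. Those intervals surround the authors' posterior mean, so a deposited TPM can lie just outside its own interval, as it did in replicate 1.

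Rora, the nuclear receptor mutated in staggerer mice, whose Purkinje cells fail to mature, extends over 734.461 kb of the plus strand of chromosome 9, from 68653786 to 69388246. It was at 17.2 TPM in replicate 1 and 22.4 TPM in replicate 2 (mean 19.8 ± 3.65 TPM, SD, n = 2), from 1228 and 1462 counts. The difference was called with a log2 ratio of -0.36 (exact binomial test, adjusted p = 4.99e-07). Ebf2, an early B-cell factor that marks and shapes subsets of Purkinje cells, lies on the plus strand of chromosome 14 from 67233292 to 67430918. Ebf2 was the highest of the transcription factors, at 26.8 TPM in replicate 1 and 32.9 TPM in replicate 2 (mean 29.8 ± 4.33 TPM, SD, n = 2). Its 2446 and 2721 counts gave a called difference with a log2 ratio of -0.29 (exact binomial test, adjusted p = 2.27e-06). Both genes were thus lower in replicate 1, by less than Foxp2 and Skor2 on the same scale.

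The calcium and effector genes of the mature cell stood at unequal levels in bulk hindbrain, where the cells they came from cannot be told apart. Pcp4 encodes a small calmodulin-binding protein with an IQ motif. It lies on the plus strand of chromosome 16, from 96467606 to 96525793. It stood at 273 TPM in replicate 1 and 310.0 TPM in replicate 2 (mean 291 ± 26.3 TPM, SD, n = 2), at percentile 96.9 of the 15661 detected genes, those averaging 1 TPM or more. Of the 641 exon bases of its transcript, 243 (37.9%) are also annotated to another gene of the same strand, not analysed here, so reads from those bases could belong to either gene. The 3161 and 3283 counts of Pcp4 gave the smallest called difference of the 10 genes, a log2 ratio of -0.18 (exact binomial test, adjusted p = 0.00900). Pcp4 alone held 76.8% of the summed TPM of the 10 genes in replicate 1 (sum 355 TPM) and 71.9% in replicate 2 (sum 431 TPM). Without it the other 9 summed to 82.6 TPM in replicate 1 and 121 TPM in replicate 2.

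The whole coding sequence of Pcp4 in GENCODE M21, from its single transcript model, is printed to show how short the coding part of the most abundant of the 10 genes is, at 189 of the 641 bases of the transcript; capitals mark the start and stop codons.
Pcp4-201: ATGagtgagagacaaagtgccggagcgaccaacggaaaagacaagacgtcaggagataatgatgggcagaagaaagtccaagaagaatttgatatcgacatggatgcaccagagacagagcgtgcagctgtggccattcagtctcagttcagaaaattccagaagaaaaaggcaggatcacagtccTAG

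Calb1 encodes calbindin, the calcium buffer classically used to stain Purkinje cells. It lies on the plus strand of chromosome 4, from 15881264 to 15908064. Its level was 11.3 TPM in replicate 1 and 19.2 TPM in replicate 2 (mean 15.2 ± 5.59 TPM, SD, n = 2), from 814 and 1176 counts. The log2 ratio was -0.72, and the difference was called (exact binomial test, adjusted p = 1.34e-17). Car8, a carbonic anhydrase-related protein without enzyme activity that binds the Itpr1 receptor, lies on the minus strand of the same chromosome, from 8143362 to 8239041. It stood at 4.56 TPM in replicate 1 and 9.30 TPM in replicate 2 (mean 6.93 ± 3.35 TPM, SD, n = 2), from 366 and 682 counts. Its log2 ratio was -0.89 (exact binomial test, adjusted p = 1.26e-23). For both genes the deposited intervals of the replicates were apart.

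Itpr1 encodes the inositol trisphosphate receptor that releases calcium from the endoplasmic reticulum, and it extends over 338.014 kb of the plus strand of chromosome 6, from 108213096 to 108551109. It was the only one of the 10 genes with a higher TPM in replicate 1. Its level was 3.14 TPM in replicate 1 and 2.62 TPM in replicate 2 (mean 2.88 ± 0.368 TPM, SD, n = 2), from 655 and 500 counts. The log2 ratio was 0.19, and the difference was called (exact binomial test, adjusted p = 0.000642). Car8 and Itpr1, whose products bind each other, therefore differed in opposite directions between these libraries.

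Pcp2, a GoLoco protein that binds inhibitory G protein subunits and is largely restricted to Purkinje cells and retinal bipolar cells, had the widest replicate difference of the 10. It lies on the minus strand of chromosome 8, from 3623371 to 3625545, and its span is 2.175 kb. Its level was 0.72 TPM in replicate 1 and 4.70 TPM in replicate 2 (mean 2.71 ± 2.81 TPM, SD, n = 2). Those levels rested on 7.37 and 40.5 expected counts. The log2 ratio was -1.73, and the difference was called (exact binomial test, adjusted p = 5.01e-06). The intervals, 0.678 to 2.19 TPM in replicate 1 and 3.79 to 6.95 TPM in replicate 2, were apart, and the SD exceeded the mean, so the mean level of Pcp2 was poorly fixed by these samples. Pet100, a gene on the opposite strand that overlaps Pcp2, stood at 22.6 TPM in replicate 1 and 18.6 TPM in replicate 2, from 526 and 397 counts. It shares 182 of the 524 exon bases of the leading Pcp2 transcript (34.7%), and whether the counting used strand is not stated in the labels or headers. Reads from the shared bases could therefore not be told apart without strand, and the level of Pcp2 is uncertain to that extent. The other overlapping genes measured here held at most 22 counts each in either replicate.

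The replicate differences of the Purkinje lineage genes leaned one way. Of the 10 genes, 9 were called: 8 were lower and 1, Itpr1, was higher in replicate 1. Among all 17664 genes tested, 34.4% were called, with 15.7% lower and 18.7% higher in replicate 1. The median log2 ratio of the 10 genes was -0.48, and that of all 15661 detected genes was -0.05. The central 95% of those genes lay between -0.48 and 0.59, so that Skor2, Foxp2, Calb1, Pcp2 and Car8 lay below the lower bound. By the deposited credibility intervals, 9 genes were apart, 8 of them lower and 1 higher in replicate 1, against 22.6% of all genes apart, 16.1% lower and 6.5% higher. With a 1.5-fold minimum on the scaled counts the number called among the 10 fell to 4, namely Skor2, Calb1, Pcp2 and Car8, all lower in replicate 1, against 5.94% of all genes in either direction and 1.52% lower.

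**Figure D2:**
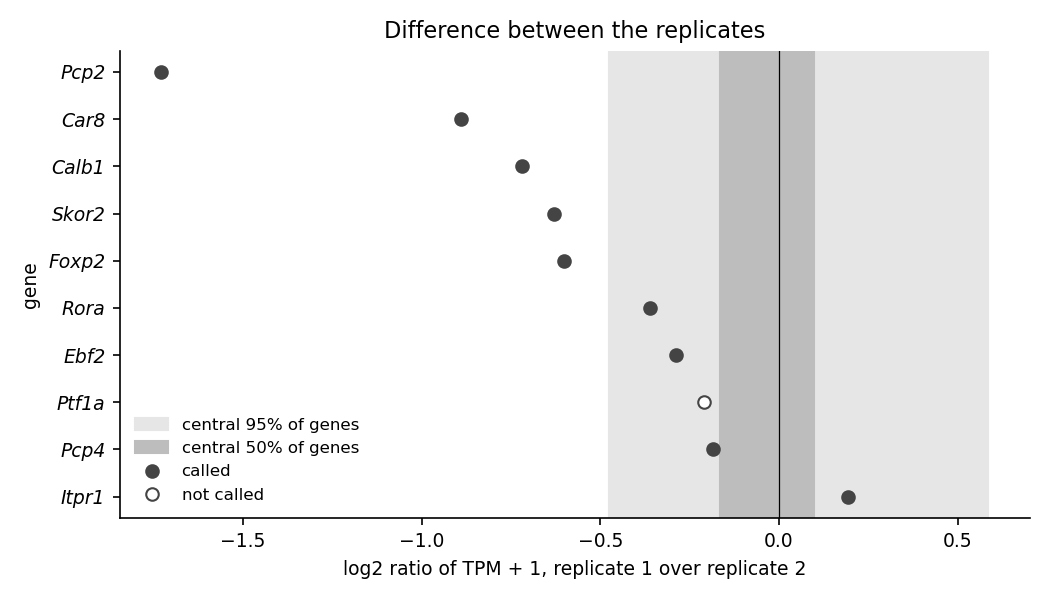
Difference between the libraries, as log2 of TPM + 1 in replicate 1 over replicate 2, for every Purkinje lineage gene, with filled circles for genes called by the exact binomial test, an open circle for Ptf1a, which was not, and grey bands for the central 95% and 50% of all detected genes. Itpr1 alone lies to the right of 0, at 0.19, and Pcp2 lies farthest to the left, at -1.73.

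The direction of the calls among the 10 genes was the same under each scaling tried, 8 lower and 1 higher in replicate 1, while that of all genes was not. Of all calls, 45.7% were lower in replicate 1 when scaled by the gene total and 80.6% when scaled by spike-ins. The share was 58.5% after TMM and 55.6% after DESeq2 scaling. Of all 17664 genes tested, 2779 were lower and 3300 higher in replicate 1 by the gene total. The numbers were 6216 lower and 1495 higher by spike-ins, 3669 and 2599 after TMM, and 3452 and 2753 after DESeq2 scaling. Spike-in scaling moved the median log2 ratio of scaled counts of all detected genes to -0.11, against which the ratios of the 10 genes under that scaling are to be read.

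Lists for other tissue, the midbrain and boundary region, dividing cells, neurons and red cells also held differences between these hindbrains. Their part in the differences above was not tested. Of 7 choroid plexus genes, 6 were higher and 1 lower in replicate 1, and their summed level was 1959 TPM in replicate 1 and 1177 TPM in replicate 2, most of it Ttr (1825 and 1094 TPM). Of 8 genes of meninges and fibroblasts, 7 were higher in replicate 1 and 1 was not called, with sums of 814 TPM in replicate 1 and 685 TPM in replicate 2. Of 7 tested genes of the midbrain and its boundary with the hindbrain, 4 were lower and 1 higher in replicate 1, with sums over all 8 listed of 46.3 TPM in replicate 1 and 69.5 TPM in replicate 2. Among them Cnpy1 stood at 1.79 TPM in replicate 1 and 24.7 TPM in replicate 2, and En1, a homeobox gene of the isthmus region that forms midbrain and cerebellum, at 2.13 TPM in replicate 1 and 5.05 TPM in replicate 2. Of 6 proliferation genes, 4 were lower and none was higher in replicate 1 (sums 268 TPM in replicate 1 and 319 TPM in replicate 2). Of 7 pan-neuronal genes, 1 was lower and 1 higher in replicate 1, but all 7 were lower with spike-in scaling (sums 4390 TPM in replicate 1 and 4725 TPM in replicate 2). The embryonic globin gene Hbb-y was at 534 TPM in replicate 1 and 137 TPM in replicate 2, while the erythroid list as a whole had 3 genes lower and 2 higher in replicate 1 out of 6 (sums 5118 TPM in replicate 1 and 5685 TPM in replicate 2). No gene of these lists was at 0 in both replicates.

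Lists for other cells of the cerebellum and its inputs held calls in both directions. The endothelial and microglial lists, scaled by the gene total, held no gene called lower in replicate 1. With spike-in scaling 1 microglial gene was called lower. Of 12 granule cell and rhombic lip genes, 4 were lower and 1 higher in replicate 1, with a median log2 ratio of -0.15, and 9 were lower and 1 higher with spike-in scaling. Of 5 genes of cerebellar inhibitory interneurons, 2 were lower and 2 higher (median -0.19). Of 6 genes of the inferior olive and precerebellar nuclei, 2 were lower, Foxp2 itself being 1 of them, and 3 were higher (median 0.05); none was called higher with spike-in scaling. The endothelial list had 2 of 6 genes higher in replicate 1, and 0 with spike-in scaling (sums 164 TPM in replicate 1 and 161 TPM in replicate 2) and the microglial list 1 of 6 (99.7 TPM in each replicate). These lists overlap in cell content with the rest of the hindbrain, so they mark populations, not the cerebellum alone.

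**Figure D3:**
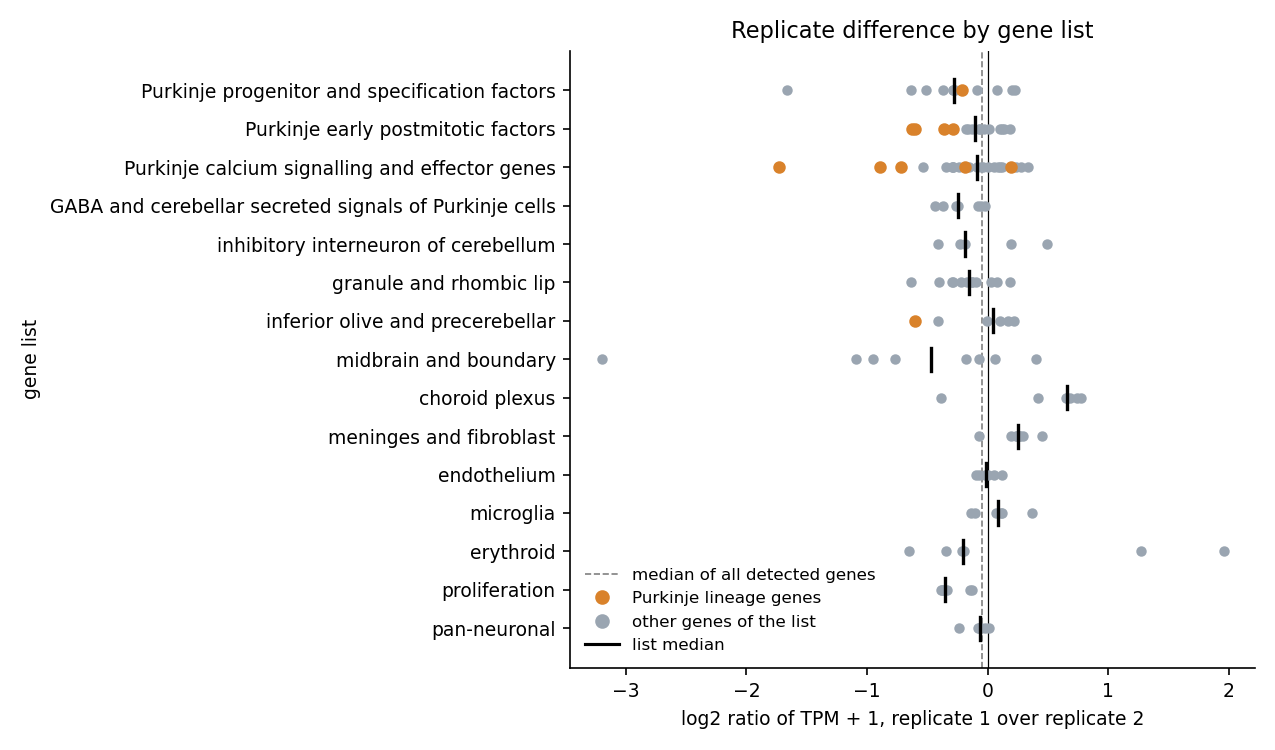
Difference between the libraries, as log2 of TPM + 1 in replicate 1 over replicate 2, of every gene of each list, with orange points for the Purkinje lineage genes, grey points for the other genes, black ticks for list medians and a dashed line for the median of all detected genes (-0.05). Choroid plexus has the highest list median (0.66), and the midbrain and boundary list the lowest (-0.47).

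A wider set of genes linked to Purkinje cells was described with 4 lists that hold the 10 genes and 48 others. In bulk hindbrain their levels cannot be assigned to Purkinje cells or to any other cell type. Of all 58 genes, 50 were at 1 TPM or more in both replicates. Of all 43346 genes, 15661 averaged 1 TPM or more, which is a looser limit. Of the 48 others, 43 were, and 47 could be tested: 14 were lower in replicate 1, 6 were higher and 27 were not called, with a median log2 ratio of -0.09. With spike-in scaling 24 of the others were lower and 2 higher in replicate 1. With TMM scaling 17 were lower and 6 higher. Of all 17664 genes tested, 6216 were lower and 1495 higher with spike-in scaling, and 3669 lower and 2599 higher with TMM scaling. The median of all 58 was -0.16. Among the others, 4 were under 1 TPM in both replicates. Of these, Prdm13, a factor of the GABAergic ventricular zone that acts with Ptf1a, was at 0.51 TPM in replicate 1 and 0.31 TPM in replicate 2.

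Of the 12 progenitor and specification factors, 5 were lower and 1 was higher in replicate 1, and 6 were not called (median log2 ratio -0.28). The highest was Cdkn1c, a cell cycle inhibitor, at 167 TPM in replicate 1 and 201 TPM in replicate 2, followed by Tfap2b at 39.9 TPM in replicate 1 and 33.9 TPM in replicate 2, which was called higher in replicate 1 except with spike-in scaling. Dll1, a Notch ligand, was at 9.80 TPM in replicate 1 and 12.2 TPM in replicate 2, and its difference was not called except, as lower in replicate 1, with TMM and spike-in scaling. Olig2, a factor of early Purkinje progenitors, was at 8.96 TPM in replicate 1 and 11.8 TPM in replicate 2 and was called lower in replicate 1. Neurog1, a proneural gene chosen after its values were seen, had 0 counts in replicate 1 and 66 counts, or 2.16 TPM, in replicate 2.

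Of the 16 early postmitotic factors, 6 were lower and 4 were higher in replicate 1, and 6 were not called (median log2 ratio -0.10). Besides Skor2, Foxp2, Rora and Ebf2, the lower genes were Dab1 and Vldlr, parts of the reelin signal that positions Purkinje cells. Vldlr is named because it completes the count, after its values were seen. Lrp8, another reelin receptor in the list, went the other way, at 54.3 TPM in replicate 1 and 49.8 TPM in replicate 2. Lrp8 was called higher in replicate 1 except with spike-in scaling, and it too is named after its values were seen. Ebf1 led the list at 96.3 TPM in replicate 1 and 98.1 TPM in replicate 2, followed by Ldb1, a cofactor of LIM homeodomain proteins, at 77.3 TPM in replicate 1 and 76.5 TPM in replicate 2. Neither was called, and Foxp1, the next in the list, at 53.4 TPM in replicate 1 and 56.2 TPM in replicate 2, was not called either; with spike-in scaling Ebf1 and Foxp1 were called lower in replicate 1. That scaling gave 10 lower and 1 higher in this list. Dab1 was at 48.2 TPM in replicate 1 and 59.0 TPM in replicate 2.

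Of the 22 tested calcium signalling and effector genes, 8 were lower and 2 were higher in replicate 1, and 12 were not called (median log2 ratio -0.09). After Pcp4 the highest were Atp2a2, the calcium pump of the endoplasmic reticulum, Plcb4, the phospholipase C downstream of metabotropic glutamate receptors, and Inpp5a. Atp2a2 was at 68.2 TPM in replicate 1 and 71.0 TPM in replicate 2, with no call except, as lower in replicate 1, with spike-in scaling. Plcb4, at 34.5 TPM in replicate 1 and 31.7 TPM in replicate 2, was called higher in replicate 1, in the same direction as Itpr1. Inpp5a, which removes a phosphate from inositol trisphosphate, was at 21.6 TPM in replicate 1 and 26.9 TPM in replicate 2 and was called lower in replicate 1.

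Of 7 GABA and secreted signal genes, 3 were lower in replicate 1 and 4 were not called (median log2 ratio -0.25). Gad1, a synthetic enzyme of GABA, was at 69.4 TPM in replicate 1 and 94.3 TPM in replicate 2. Kitl, at 26.6 TPM in replicate 1 and 31.7 TPM in replicate 2, was also called lower in replicate 1. Gad2, at 26.3 TPM in replicate 1 and 27.3 TPM in replicate 2, and Nrg1, at 20.6 TPM in replicate 1 and 20.9 TPM in replicate 2, were not called. These lists were chosen with earlier results of the same libraries known, and their counts describe and do not test.

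Most of the 10 genes belong to small families, whose other members serve as a measure of how much of the family the Purkinje gene held. All 9 families with a relative measured in the files were compared, with 17 relatives. The Purkinje gene had the highest level of its family in 2 of 9, Rora and Pcp4. Rora held 61.4% of the summed TPM of Rora and Rorb in replicate 1 and 65.0% in replicate 2; Rorb was at 10.8 TPM in replicate 1 and 12.1 TPM in replicate 2. Pcp4 held 86.3% in replicate 1 and 91.2% in replicate 2 beside Pcp4l1, which was at 43.5 TPM in replicate 1 and 30.0 TPM in replicate 2 and was called in the opposite direction.

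In the remaining 7 families another gene was higher. Foxp2 held 18.1% of the Foxp family in replicate 1 and 24.5% in replicate 2, below Foxp1 and Foxp4 (27.0 TPM in replicate 1 and 28.2 TPM in replicate 2). Ebf2 held 18.0% in replicate 1 and 21.4% in replicate 2, second to Ebf1. Skor2 held 4.56% in replicate 1 and 10.3% in replicate 2 beside Skor1, which was at 16.9 TPM in replicate 1 and 15.7 TPM in replicate 2. Calb1 held 15.5% in replicate 1 and 18.9% in replicate 2 beside Calb2, the calretinin gene, at 61.5 TPM in replicate 1 and 81.9 TPM in replicate 2.

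Pcp2 held 0.724% of the GoLoco genes in replicate 1 and 4.27% in replicate 2, where Gpsm1 was the highest at 77.0 TPM in replicate 1 and 82.3 TPM in replicate 2. Car8 held 6.82% in replicate 1 and 12.6% in replicate 2 of the carbonic anhydrase-related genes, below Car10 (40.6 TPM in replicate 1 and 41.5 TPM in replicate 2) and Car11. Itpr1 held 37.2% in replicate 1 and 30.5% in replicate 2, second to Itpr2 (4.34 TPM in replicate 1 and 5.04 TPM in replicate 2). In 8 of the 9 families the Purkinje gene had the lowest log2 ratio of the genes compared and a smaller share in replicate 1, with Itpr1 as the exception. Rora, Skor2, Calb1 and Pcp4 were each compared with only 1 relative. These counts partly restate the lean of the 10 genes, and no share over families of other genes was computed. Of the relatives, Calb2 and Rorb were called lower in replicate 1, in the same direction as Calb1 and Rora, and Itpr2 was called lower in the opposite direction to Itpr1. The relatives Foxp3 and Itpr3 were under 1 TPM in both replicates. Ebf3 (22.2 TPM in replicate 1 and 19.3 TPM in replicate 2) and Skor1 were called higher in replicate 1, Skor1 not with spike-in scaling, in the opposite direction to Ebf2 and Skor2. Foxp4, Gpsm1, Car10, Car11 and the remaining relatives, Gpsm2, Gpsm3 and Ebf4, were not called by the gene total. Foxp4 was called lower in replicate 1, in the direction of Foxp2, with TMM, DESeq2 and spike-in scaling. Gpsm1 and Gpsm2 were called lower in replicate 1 with spike-in scaling. S100g, a short calbindin outside the families, had too few counts for the test. The difference between a gene and its relatives was not itself tested.

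**Figure D4:**
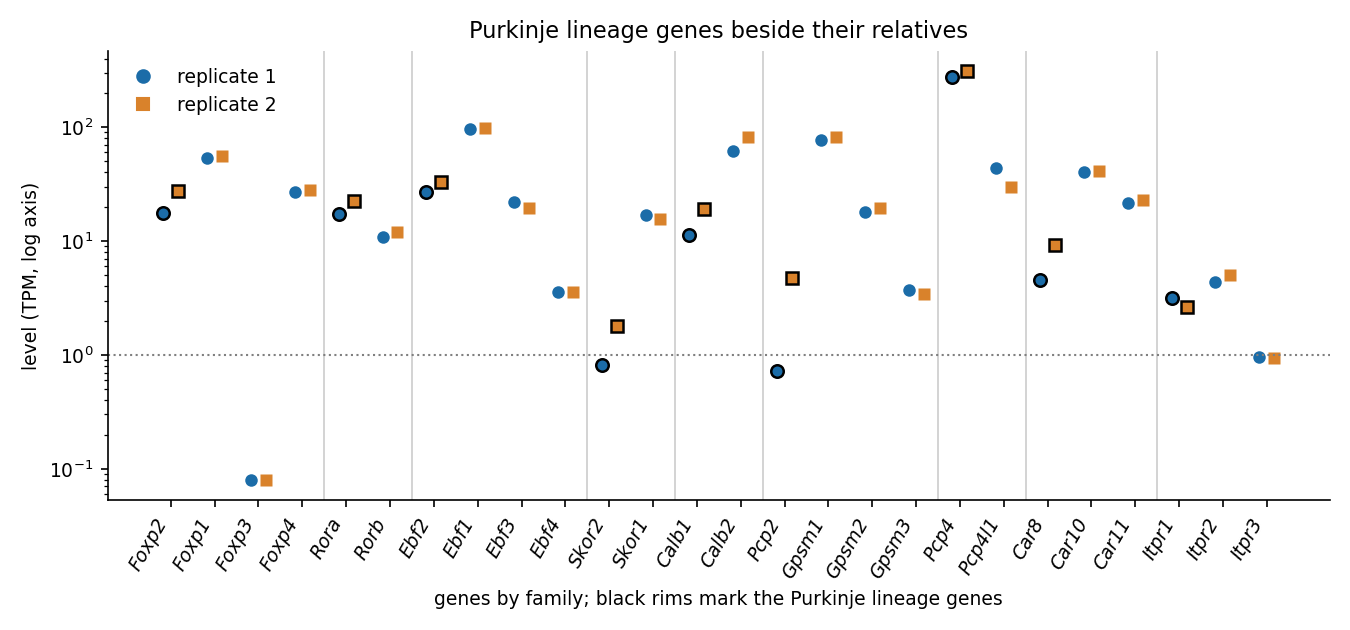
Level in TPM, on a log axis, of the genes compared in the 9 families, with circles for replicate 1, squares for replicate 2, black rims on the Purkinje lineage genes, grey lines between families and a dotted line at 1 TPM. Rora and Pcp4 are the highest of their families, and Pcp2 is the lowest of the GoLoco genes by mean and in replicate 1 but not in replicate 2, at 0.72 TPM in replicate 1 and 4.70 TPM in replicate 2.

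Of 44 transcript models for the 10 genes, 43 were matched to GENCODE M21, 41 of them with the length in the files. Each gene had the same leading transcript in both replicates, although Ptf1a, Skor2, Pcp4, Car8 and Itpr1 had 1 model each, so that 5 genes could show a choice. In Foxp2 the leading pair was Foxp2-201 (7.72 TPM in replicate 1 and 12.4 TPM in replicate 2) and Foxp2-207 (5.92 TPM in replicate 1 and 8.57 TPM in replicate 2). Their coding sequences were identical over 2145 bases. They differ in where transcription starts: the models that start at the first group of starts held 38.0% of the TPM of Foxp2 in both replicates, and those of the next group, which begins 283.298 kb downstream, held 57.2% in replicate 1 and 58.6% in replicate 2. The split between the start groups was therefore nearly equal in the replicates, although the level of the gene was lower in replicate 1.

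In Rora the start sites are farther apart, at 635.896 kb, and the coding sequences differ. Rora-202, from the downstream start, was at 13.7 TPM in replicate 1 and 17.2 TPM in replicate 2, and Rora-201, from the first start, at 2.00 TPM in replicate 1 and 2.78 TPM in replicate 2. Rora-202 held 80.0% of the TPM of Rora in replicate 1 and 76.8% in replicate 2. By expected counts, which are not corrected for length, the gap was narrower: 732 counts in replicate 1 and 835 in replicate 2 for Rora-202, and 462 in replicate 1 and 587 in replicate 2 for Rora-201. The starts of both coding sequences (GENCODE M21) are printed because they are where the transcripts part; capitals mark the bases of each transcript that the other lacks, 196 in Rora-201 and 28 in Rora-202, and lower case the first bases of the 1376 that they share.
Rora-201: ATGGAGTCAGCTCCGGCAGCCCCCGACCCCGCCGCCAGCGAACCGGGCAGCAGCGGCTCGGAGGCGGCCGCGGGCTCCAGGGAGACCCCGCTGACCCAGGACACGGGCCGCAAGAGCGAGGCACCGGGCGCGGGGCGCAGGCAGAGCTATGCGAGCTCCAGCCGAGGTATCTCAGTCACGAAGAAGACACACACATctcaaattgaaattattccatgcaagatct
Rora-202: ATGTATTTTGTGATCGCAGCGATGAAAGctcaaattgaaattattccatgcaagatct

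Rora-202, the more abundant by TPM, thus opens with a shorter stretch of its own than Rora-201, and the rest of the coding sequence is common to both. In Ebf2 the leading pair had identical coding sequences of 1728 bases: Ebf2-203 was at 17.4 TPM in replicate 1 and 20.2 TPM in replicate 2, and Ebf2-202 at 7.66 TPM in replicate 1 and 9.70 TPM in replicate 2. In Calb1 the second transcript was a retained-intron model, Calb1-202, at 2.35 TPM in replicate 1 and 4.84 TPM in replicate 2 beside 8.89 TPM in replicate 1 and 13.8 TPM in replicate 2 for the coding model Calb1-201. Retained-intron models together held 20.9% of the TPM of Calb1 in replicate 1 and 27.9% in replicate 2. By expected counts Calb1-202 had 30.3 in replicate 1 and 56.9 in replicate 2, against 784 and 1113 for Calb1-201, so the share by TPM rests on few reads over a short model.

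Coding models held 90.2% of the TPM of Foxp2 on average over the replicates (SD 0.494, n = 2), 90.4% of Rora (SD 1.74), 96.4% of Ebf2 (SD 0.165), 75.6% of Calb1 (SD 4.93) and 97.9% of Pcp2 (SD 2.95). Models not matched to GENCODE M21 have no type here and were counted as noncoding. Such a model held 3.36% of the TPM of Foxp2 on average, so the coding share of Foxp2 may be higher by up to that much. The median over 9912 protein-coding genes that were detected and had more than 1 model was 92.7%, with quartiles at 74.6% and 99.9%. Each of the 5 values lay within those quartiles. By expected counts the coding share of Calb1 was 95.5%.

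**Figure D5:**
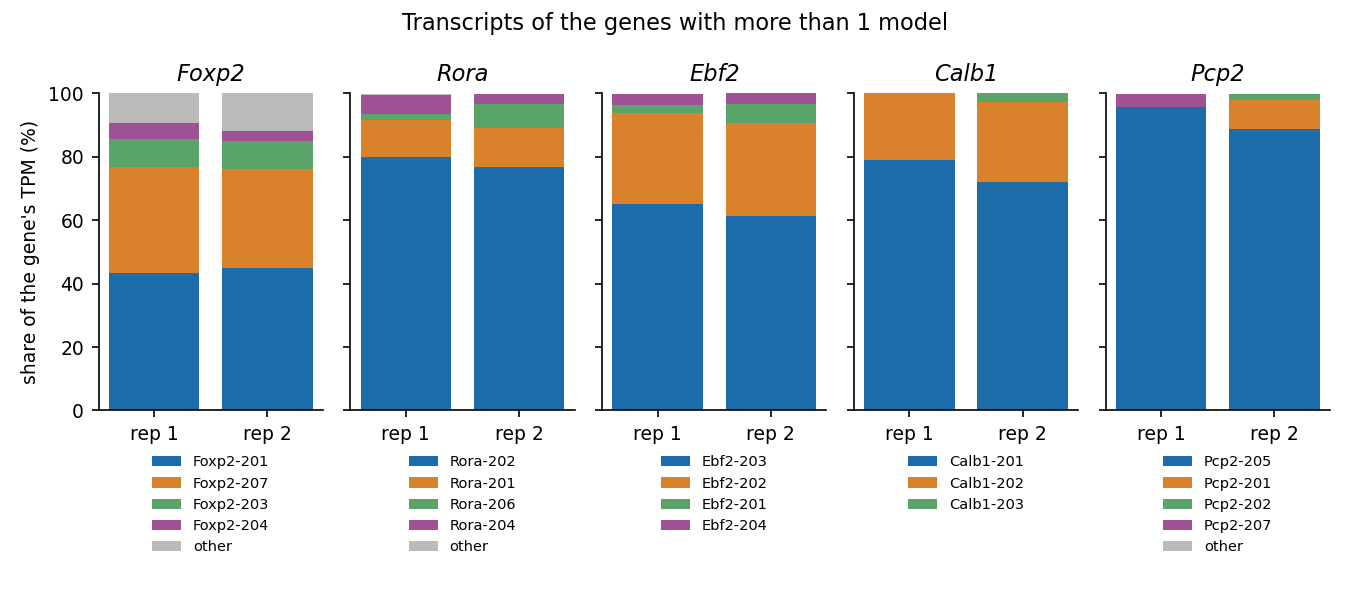
Share of each gene's TPM held by its transcripts in replicate 1 and replicate 2, for the 5 genes with more than 1 model; the 4 highest transcripts of a gene are coloured and the remainder is grey. Rora-202 takes 80.0% in replicate 1 and 76.8% in replicate 2, and the leading transcript is the same in both replicates for each gene.

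The reads of Pcp2 were assigned mainly to an internal start. Pcp2-205 was at 0.69 TPM in replicate 1 and 4.17 TPM in replicate 2 and held 95.8% of the gene's TPM in replicate 1 and 88.7% in replicate 2. The models that begin at the first start, farther upstream, held 4.17% in replicate 1 and 1.91% in replicate 2. Pcp2-201, from a start between them, was at 0 in replicate 1 and 0.44 TPM in replicate 2. These shares rest on 6.25 and 34.6 expected counts of Pcp2-205 and on the part shared with Pet100 described above. The starts of the coding sequences are printed because the upstream model, Pcp2-204, which was listed at 0 in both replicates, would add 111 bases in front of the coding sequence of Pcp2-205; capitals mark those added bases.
Pcp2-204: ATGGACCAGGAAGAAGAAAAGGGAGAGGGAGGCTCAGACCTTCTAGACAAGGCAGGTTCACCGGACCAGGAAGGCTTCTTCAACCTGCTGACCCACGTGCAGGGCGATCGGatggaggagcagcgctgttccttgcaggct
Pcp2-205: atggaggagcagcgctgttccttgcaggct

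RefSeq promoter windows (GRCm38.p6), 250 bases before a start to 50 bases after it, were found for 4 of the 10 genes: 4 windows for Pcp2 and 1 each for Pcp4, Ptf1a and Rora. They were searched on both strands for AGGTCA, the half-site of nuclear receptors such as Rora, for the E-box CANNTG, for the homeodomain core TAATTA, for the TATA box TATAAA, for the forkhead word TGTTTAC and for the palindrome of early B-cell factors. The half-site AGGTCA was found in 4 of the 7 windows, in Pcp2 and Pcp4, and in 16.3% of 32851 windows of all genes. Of the 4 Pcp2 windows, 3 held it, but neighbouring windows overlap and a pair of them hold the same site. The E-box was found in 5 of the 7 windows against 72.3% of all, and the forkhead word and the early B-cell factor palindrome in none, against 3.65% and 0.904%. The homeodomain core and the TATA box were each found in 1 window, that of the middle start of Pcp2, against 5.29% and 13.6% of all. The match to TATAAA there was on the strand opposite to the gene, as TTTATA, and begins at -114 from that start. A match is a description of letters and not evidence of binding.

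The windows of the first and the internal start of Pcp2 are printed because the transcript models of Pcp2 begin at or near them, and that of Pcp4 because it is the most abundant of the genes; capitals mark AGGTCA or its reverse complement TGACCT. In the printed Pcp2 windows the half-site begins at -12 from the first start (3625547) and at -26 from the internal start (3625036). In the Pcp4 window the reverse complement of the half-site begins at -164. GENCODE places the start of Pcp2-205 nearby, at 3625002.
Pcp2 first start, chr8:3625498-3625797, minus strand: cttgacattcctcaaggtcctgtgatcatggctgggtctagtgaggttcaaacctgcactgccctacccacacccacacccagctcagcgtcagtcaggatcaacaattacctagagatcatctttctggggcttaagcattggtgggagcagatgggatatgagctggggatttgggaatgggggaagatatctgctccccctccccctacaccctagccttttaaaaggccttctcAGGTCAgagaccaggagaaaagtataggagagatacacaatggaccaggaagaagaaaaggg
Pcp2 internal start, chr8:3624987-3625286, minus strand: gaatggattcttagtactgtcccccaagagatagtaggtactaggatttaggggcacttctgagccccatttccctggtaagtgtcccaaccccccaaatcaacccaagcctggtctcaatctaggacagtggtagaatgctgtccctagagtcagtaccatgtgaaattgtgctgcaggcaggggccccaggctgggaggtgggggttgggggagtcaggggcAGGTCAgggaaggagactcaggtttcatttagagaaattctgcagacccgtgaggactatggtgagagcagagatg
Pcp4, chr16:96467356-96467655, plus strand: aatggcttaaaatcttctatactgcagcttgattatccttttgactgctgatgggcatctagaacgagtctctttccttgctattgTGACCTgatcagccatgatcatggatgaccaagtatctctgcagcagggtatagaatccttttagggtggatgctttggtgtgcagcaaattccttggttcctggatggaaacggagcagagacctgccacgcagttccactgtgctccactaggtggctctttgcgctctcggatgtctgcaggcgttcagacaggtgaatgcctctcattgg

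With 2 samples of 1 group, no measure of likeness between genes could be had, and no gene is named for a pattern like that of the 10.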

How the data were processed

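Total RNA-seq of 2 hindbrains was analysed as 1 group. Per the description deposited with each library, the authors assigned reads to mm10 with annotation M4, separately per replicate; the sources used here name no aligner, quantifier, version or use of strand. Expected counts, deposited without normalisation, were rounded for tests. The authors scaled TPM over every feature in the file, spike-in RNAs included (8.15% of TPM in replicate 1 and 7.72% in replicate 2), so a larger spike-in share lowers every gene. FPKM, which the authors scaled to length and read total, was an alternative. The deposited credibility bounds, score values of the authors' estimate, have no stated level. The percent of its gene that each transcript holds, as deposited, was an alternative to shares of TPM.

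Symbols were matched for 42462 of 43346 genes; coordinates and coding sequences came from GENCODE M21 (GRCm38, the assembly of mm10), whose models can differ from M4, and promoter windows from RefSeq. The 10 genes, the lists and the alternatives were chosen with earlier results of these data known. Genes were named by rule: the 10 genes, their 2 highest transcripts, measured relatives and overlapping genes, the 4 highest genes of a list, and those under 1 TPM in both replicates in the Purkinje lists. Some genes taken by this rule are not reported here. Of the lists of other cells, counts and sums are given, with the genes on which a result turned.

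The exact two-sided binomial test was run where the mean count reached 10, scaled by gene total (33727977 and 32450699 counts), with Benjamini-Hochberg adjustment; log2 ratios used a pseudocount of 1 TPM, which understates changes of low genes. Nothing but the pup and date labels says that the samples are separate animals, so p-values may measure technical spread, and intervals cover counting error only. Alternatives were scaling by TMM from edgeR 4.0.16, by DESeq2 1.42.0 and by spike-ins, other filters and limits, and each replicate alone. Figures were drawn with matplotlib 3.10.9, tests were run with scipy 1.17.1 under Python 3.11.15 (pandas 2.3.3, numpy 2.4.6), and R 4.3.3 gave the scaling factors. The binomial calls were first tested on simulated data of known fold change. Those counts were drawn with counting error only, so they could not show how the calls fare with other spread between libraries.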

Additional observations from a re-analysis of the deposited data

How the results depend on the processing

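With a 1.5-fold minimum, 4 of the 10 genes were called instead of 9, and 1050 of all genes instead of 6079; 3995 genes had deposited intervals that did not overlap. Among the 10, the calls numbered 9 with TMM, DESeq2 and spike-in scaling and without a filter, and 7 of 7 tested with a mean count of at least 100. Of all genes tested, 35.5% were called with TMM, 35.1% with DESeq2 and 43.7% with spike-in scaling. The share was 23.1% without a filter and 41.5% with a mean count of at least 100. The median log2 ratio of the 10 genes was -0.48 and ranged from -0.37 (FPKM) to -0.67 (counts scaled by the spike-in total). The median coding share over the genes with several models was 90.4% by TPM and 96.4% by expected counts, with the unmatched Foxp2 model counted as noncoding. Using a single replicate, the number of genes at 1 TPM or more was 7 in replicate 1 and 9 in replicate 2, and that coding share was 91.7% in replicate 1 and 89.8% in replicate 2. The leading transcripts were the same in both replicates by counts, posterior means and deposited shares. No gene among the 10 changed direction under these alternatives. Across all calls, the share lower in replicate 1 was 45.7% by gene total and 80.6% by spike-ins, and Dcx, a pan-neuronal gene named after its values were seen, was called higher in replicate 1 by gene total, TMM and DESeq2 scaling but lower by spike-ins. No paired analysis was possible because the samples form 1 group. Depth limits Ptf1a (12 and 17 counts) and Pcp2 (7.37 and 40.5 counts) most.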
